A study of Homo sapiens with 18 samples.

Results

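Transcripts of 10 genes that mark the mesenchymal switch were followed in Mel92.1 and MP41, established cell lines of uveal melanoma, upon inhibition of EHMT2, also called G9a, an enzyme that methylates lysine 9 of histone H3. The genes were taken by symbol from the deposited count table, and all 10 were found among its 26475 gene symbols. They are the transcription factors ZEB1, ZEB2, SNAI1, SNAI2 and TWIST1 and the effector and marker genes CDH2, VIM, FN1, SPARC and AXL. The 18 RNA-sequencing libraries fall into 6 groups of 3 biological replicates. In each line, cells received the vehicle DMSO, UNC0642 at 1 μM or A366 at 1 μM, and the inhibitors, both directed at EHMT2 and also able to inhibit EHMT1, were applied for 48 h. Each line stands for itself, since a line is 1 cell population and a difference between the lines cannot be told apart from a difference between the tumors they came from.

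A cell that loses epithelial contacts and becomes motile switches its transcription factors. SNAI1, SNAI2, ZEB1, ZEB2 and TWIST1 bind E-boxes, short DNA elements with the letters CANNTG, and the SNAI and ZEB proteins repress CDH1, the gene of E-cadherin, through the E-box CAGGTG. Snail has been described to bring EHMT2 to the CDH1 promoter, which is why an EHMT2 inhibitor raises a question about these genes. In the melanocyte lineage the switch has a particular form, because ZEB2 and SNAI2 belong to the differentiated melanocyte while ZEB1 and TWIST1 mark the dedifferentiated, invasive state, often with the receptor AXL. CDH2 encodes N-cadherin, VIM the intermediate filament vimentin, FN1 the matrix protein fibronectin and SPARC a matrix-associated glycoprotein.

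The libraries held between 23601156 and 62941462 estimated counts, with a median of 41955693. Mel92.1 UNC0642 replicate 1 stood apart. It had the lowest total, 32.8% of its counts came from 4 ribosomal RNA genes against 3.31% in the library with the least, and 17.3% of 15799 tested genes were at 0 in it against 1.77 to 4.79% in the other 17 libraries. The labels of A366 replicates 2 and 3 of both lines went against the study's own list of these libraries, which has all 4 under the other line, and their values sat with that line. CDH2 was at 0.414 and 0.690 CPM in the libraries labelled MP41 and at 11.3 and 9.499 CPM in those labelled Mel92.1. The 4 libraries were therefore placed in the line under which that list has them, and every library below is named by the line it was placed in. Values without them are given where the A366 groups are described, and these rest on 1 A366 library per line, whose spread is then taken from the DMSO and UNC0642 libraries. Both lines carried the lineage of their label, as 8 of 8 melanocyte lineage markers (MITF, SOX10, PMEL, MLANA, TYR, DCT, TYRP1, PAX3) reached 1 CPM in every group, with summed levels of 15080 to 24470 CPM. Of 8 fibroblast markers 2 to 4 reached that level, with summed levels of 26.1 to 54.4 CPM. EHMT2 itself was at 77.5 to 109 CPM in Mel92.1 and 92.8 to 119 CPM in MP41, a level that says nothing of enzyme activity.

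Promoter sequence is shown for the 3 genes with the widest difference between the lines, ZEB1, CDH2 and AXL, and for ZEB2, which fell with A366 in MP41. Each is the stretch of 250 bases before a RefSeq transcript start (GRCh38.p14), and capitals mark the E-box CAGGTG or its reverse complement CACCTG. ZEB1, CDH2 and AXL have other starts in the table. For ZEB1 and AXL the stretch with the most matches is shown, and the other AXL stretch holds none. SNAI1, SNAI2 and TWIST1 had no entry.
ZEB1, chr10:31318966-31319215, plus strand: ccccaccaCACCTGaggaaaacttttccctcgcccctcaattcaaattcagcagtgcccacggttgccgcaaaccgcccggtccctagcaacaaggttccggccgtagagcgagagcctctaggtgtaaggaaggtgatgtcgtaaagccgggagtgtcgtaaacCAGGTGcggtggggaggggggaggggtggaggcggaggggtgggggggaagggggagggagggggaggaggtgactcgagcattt
AXL, chr19:41218973-41219222, plus strand: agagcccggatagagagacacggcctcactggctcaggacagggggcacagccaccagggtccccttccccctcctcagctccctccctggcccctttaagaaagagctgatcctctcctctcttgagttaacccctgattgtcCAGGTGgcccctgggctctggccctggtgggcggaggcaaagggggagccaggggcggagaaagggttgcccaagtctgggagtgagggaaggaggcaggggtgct
CDH2, chr18:28177131-28177380, minus strand: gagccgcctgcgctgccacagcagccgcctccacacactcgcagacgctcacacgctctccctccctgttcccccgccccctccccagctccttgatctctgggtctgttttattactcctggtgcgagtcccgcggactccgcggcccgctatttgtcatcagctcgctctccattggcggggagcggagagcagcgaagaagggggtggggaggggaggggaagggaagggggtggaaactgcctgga
ZEB2, chr2:144520120-144520369, minus strand: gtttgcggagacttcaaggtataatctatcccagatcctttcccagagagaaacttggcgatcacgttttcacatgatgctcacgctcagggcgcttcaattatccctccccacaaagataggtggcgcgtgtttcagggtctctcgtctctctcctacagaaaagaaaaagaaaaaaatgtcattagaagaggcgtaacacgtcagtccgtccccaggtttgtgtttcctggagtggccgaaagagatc
The ZEB1 stretch holds 2 matches, whose first bases lie 242 and 85 bases before the start, and the AXL stretch holds 1, at 106 bases before the start. The CDH2 and ZEB2 stretches hold none. Among 15 such stretches of 7 of the genes, 3 hold a match, and among 35116 stretches in the whole RefSeq set 17.5% do. A match is a run of letters only.

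Without inhibitor the lines differed most in ZEB1, CDH2 and AXL, all lower in Mel92.1, while SNAI2, TWIST1 and VIM were higher there. Levels are given as counts per 1000000 counts of a library, with library sizes scaled by the trimmed mean of M-values (CPM), and comparisons are log2 fold changes with their standard error (SE) and Benjamini-Hochberg adjusted p from edgeR's quasi-likelihood test over all tested genes, with a threshold of 0.05. Of the 10 genes 9 passed it, 6 lower and 3 higher in Mel92.1, beside 69.4% of all 15799 genes tested. The median over the 10 was -0.59 and over all tested genes -0.02.

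**Figure D1:**
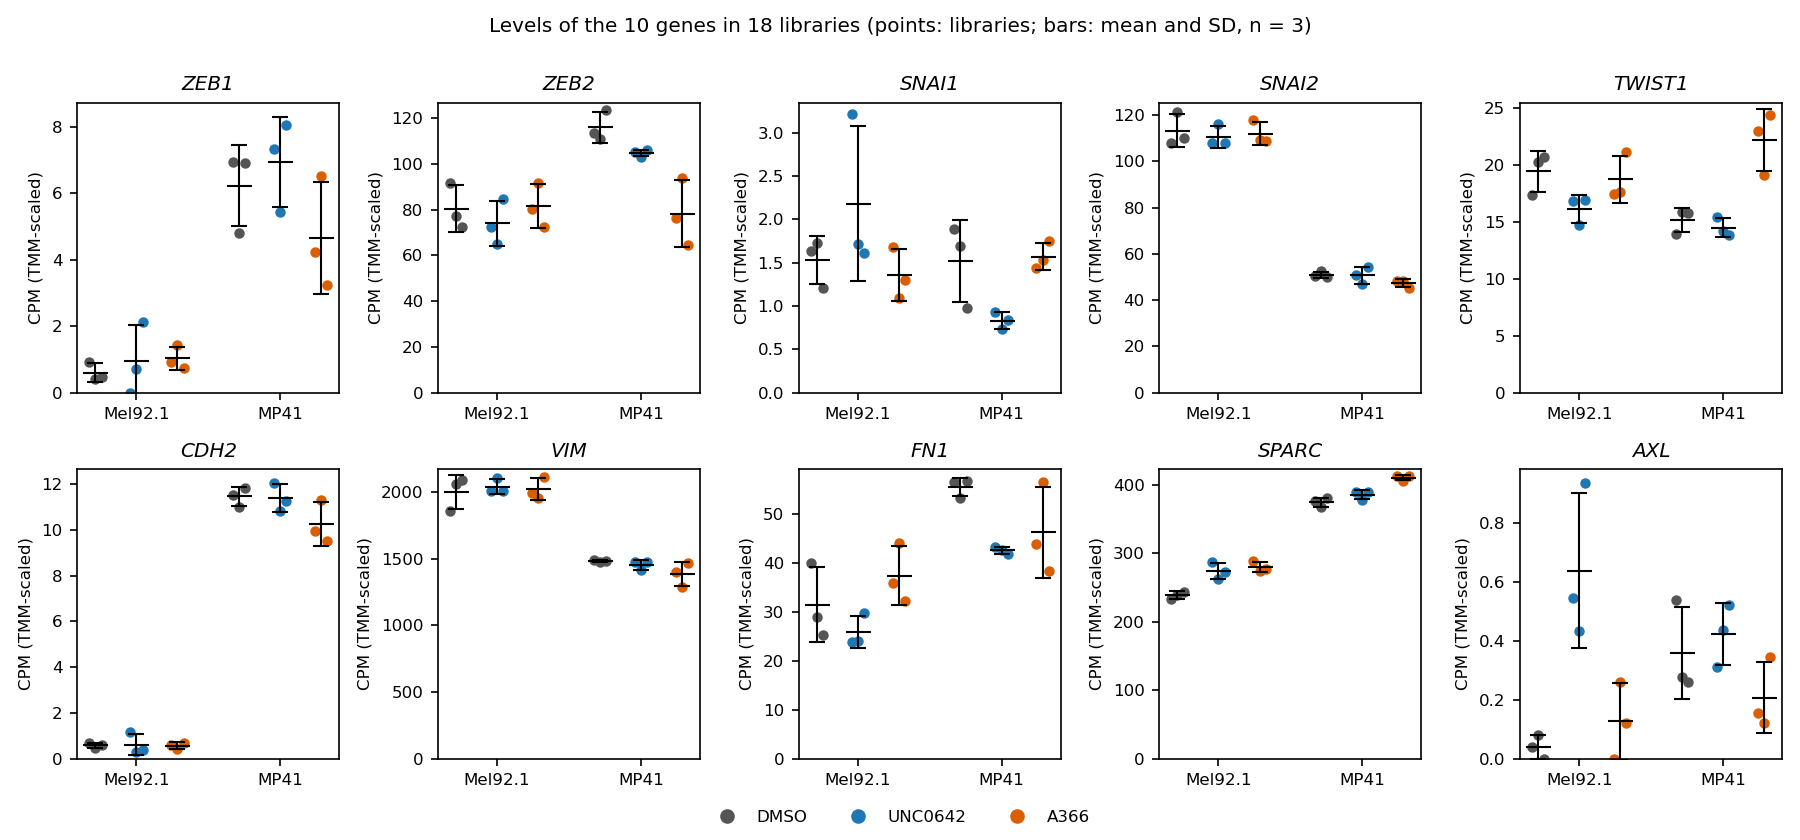
Level of each of the 10 genes (vertical axis, TMM-scaled CPM, from 0) in the 18 libraries, with Mel92.1 on the left and MP41 on the right of each panel. Points are libraries, colored by treatment, and bars give the mean and SD (n = 3). CDH2 lies between 0.307 and 1.15 CPM in Mel92.1 and between 9.499 and 12.1 CPM in MP41, and TWIST1 in MP41 is highest with A366.

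ZEB1 (chr10:31318495-31529814, plus strand, coordinates from GENCODE 29 on GRCh38 here and below), the factor tied to the invasive state, was at 0.921, 0.399 and 0.464 CPM in the DMSO libraries of Mel92.1 and at 6.94, 4.81 and 6.91 CPM in those of MP41. The groups did not overlap, and the log2 difference was -3.36 (SE 0.61, adjusted p = 0.000101). Over all 9 libraries of a line, treated ones included, ZEB1 ranged from 0 to 2.12 CPM in Mel92.1 and from 3.23 to 8.06 CPM in MP41, so the lines stayed apart. The library at 0 was Mel92.1 UNC0642 replicate 1, where 3 counts correspond to 0.182 CPM. ZEB1-AS1, which overlaps ZEB1 on the opposite strand, was at 1.03 to 1.79 CPM in Mel92.1 and 0.627 to 1.53 CPM in MP41, and because the strand setting of the counting is not given in the sources used here, low ZEB1 values cannot be told apart from reads of its antisense partner.

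ZEB2 (chr2:144364364-144524583, minus strand), the paralog found in differentiated melanocytes, was at 91.8, 77.2 and 72.4 CPM in Mel92.1 and at 113, 111 and 124 CPM in MP41, a log2 difference of -0.53 (SE 0.13, adjusted p = 0.00132). All MP41 libraries were above all those of Mel92.1. This direction was lost with a term in each library for the GC content and the length of transcripts, with a log2 difference of 0.12 (adjusted p = 0.285).

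SNAI2 (chromosome 8, minus strand), which encodes Slug and acts in neural crest and melanocyte development, showed the reverse order. It was at 108, 122 and 110 CPM in Mel92.1 and at 50.3, 52.4 and 49.9 CPM in MP41, a log2 difference of 1.16 (SE 0.07, adjusted p = 9.57e-11). Its paralog SNAI1 (chr20:49982999-49988886, plus strand) was near the lower end of the measured range in both lines, at 1.64, 1.73 and 1.21 CPM in Mel92.1 and at 1.88, 1.70 and 0.978 CPM in MP41. The SNAI1 groups overlapped, and the log2 difference was 0.01 with a 95% interval of -0.64 to 0.65.

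TWIST1 (chr7:19020991-19117672, minus strand), a basic helix-loop-helix factor, was at 17.4, 20.3 and 20.7 CPM in Mel92.1 and at 13.9, 15.8 and 15.7 CPM in MP41. The groups did not overlap, but the log2 difference was small at 0.36 (SE 0.11, adjusted p = 0.0108). It was 0.06 (adjusted p = 0.697) with the term for GC content and length, and it missed the threshold with the libraries as labelled (adjusted p = 0.0516).

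Among the effectors, CDH2 (chr18:27950966-28177446, minus strand) was the most divided. N-cadherin transcript was at 0.675, 0.479 and 0.618 CPM in Mel92.1 and at 11.5, 10.99 and 11.8 CPM in MP41, a log2 difference of -4.26 (SE 0.30, adjusted p = 7.82e-10). No library of 1 line came near the other line.

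VIM (chr10:17228259-17237593, plus strand) was abundant in both lines, at 1853, 2057 and 2090 CPM in Mel92.1 and at 1488, 1478 and 1479 CPM in MP41. Vimentin was thus higher in the line with little CDH2, with a log2 difference of 0.43 (SE 0.06, adjusted p = 2.92e-06). FN1 (chr2:215360440-215436172, minus strand) was at 40.1, 28.9 and 25.4 CPM in Mel92.1 and at 56.5, 53.4 and 56.9 CPM in MP41, a log2 difference of -0.82 (SE 0.16, adjusted p = 0.000212). SPARC (chr5:151661096-151687165, minus strand) was at 233, 239 and 244 CPM in Mel92.1 and at 376, 368 and 380 CPM in MP41. Both matrix genes were lower in Mel92.1 without overlap, SPARC by 0.65 on the log2 scale (SE 0.05, adjusted p = 1.24e-09 for the log2 difference).

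AXL (chr19:41219203-41261766, plus strand), a receptor tyrosine kinase of the TAM family, was the least abundant of the 10. The DMSO libraries of Mel92.1 held 2, 3 and 0 counts and those of MP41 held 25, 12 and 12. The ratio of the summed counts per library size was 0.110 with an exact 95% counting interval of 0.0343 to 0.275, and the fitted log2 difference was -3.08 (SE 0.94, adjusted p = 0.00732). CDH1 (chr16:68737225-68835548, plus strand), the repressed target, was also near the floor, with 34, 12 and 7 counts in Mel92.1 and 4, 5 and 0 in MP41. The CDH1 ratio was 6.36 (3.11 to 14.7), and the edgeR log2 difference was 2.54 (SE 0.90, adjusted p = 0.0191). It did not pass with the libraries as labelled (adjusted p = 0.153). CDH1 passed the filter on low counts in the fit of all libraries but not in that of MP41 alone. It thus entered this test through Mel92.1, where it is higher, and its adjusted p is not taken as support. Counting intervals here cover counting error only, since the reads carry no molecular identifiers.

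**Figure D2:**
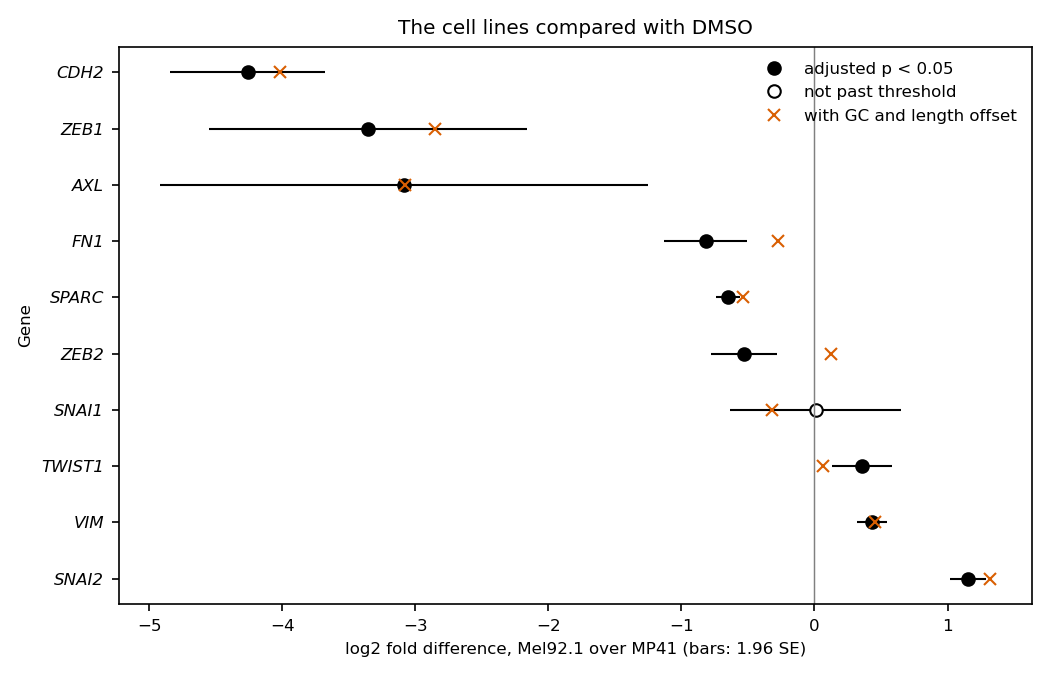
Log2 fold difference of each of the 10 genes between the DMSO libraries of Mel92.1 and MP41 (horizontal axis, positive where Mel92.1 is higher). Points are the estimates from a fit of all 18 libraries, filled where the adjusted p was below 0.05, bars give 1.96 SE, and crosses give the estimates with the term for GC content and length. CDH2, ZEB1 and AXL lie at -4.26, -3.36 and -3.08, while SNAI2 lies at 1.16 and SNAI1 at 0.01.

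Per kilobase of the longest annotated transcript, the order of the genes was similar in the lines at its upper end. In Mel92.1 with DMSO, VIM was at 750.1 CPM per kb, SPARC at 64.5, SNAI2 at 40.0, TWIST1 at 11.7, ZEB2 at 8.40, FN1 at 3.43 and SNAI1 at 0.905. Below these, CDH2 at 0.136 and ZEB1 at 0.0949 CPM per kb overlapped each other, and AXL was last at 0.00850. In MP41, VIM (555.7 CPM per kb), SPARC (101) and SNAI2 (17.98) led again, followed by ZEB2 (12.1), TWIST1 (9.11), FN1 (6.06) and CDH2 (2.64), while ZEB1 (0.993) and SNAI1 (0.901) overlapped above AXL (0.0760). By the longest transcript, SNAI2 was thus the most abundant transcription factor of the 5 in both lines, and ZEB1 was far below ZEB2. The order between SNAI2, ZEB2, TWIST1 and FN1 was not kept when the median transcript length was used, where ZEB2 led the factors in MP41 at 48.3 CPM per kb and SNAI2 was at 22.9.

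The lists around the 10 are given beside all tested genes, of which 34.8% were lower and 34.5% higher in Mel92.1. Passing the test is thus common in this comparison. DSP, OVOL2, LOXL1, FAP and KDR, named below, were near 0 counts in 1 line and entered this test through the other. Their passing is not taken as support. Of 15 tested other mesenchymal genes, 9 were lower and 3 higher in Mel92.1, with a median log2 difference of -1.47. The matrix gene TNC had 2 counts in Mel92.1 and 95 in MP41 with DMSO (ratio 0.0227, counting interval 0.00271 to 0.0844), and the proteoglycan gene SPOCK1 (log2 difference -3.39) and the TGF-β-induced matrix gene TGFBI (-3.29) followed. Among AXL's relatives, MERTK, the sister receptor, was at a log2 difference of -7.24 and the ligand gene PROS1 at -1.45, while TYRO3, the other receptor, was at 0.25. Thus 2 of the 4 tested were lower and 1 higher in Mel92.1.

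The other 7 tested transcription factors of the switch divided evenly, with TCF3 (1.62) and GSC (1.06) higher and 2 lower in Mel92.1, ETS1 (-1.60) among the latter, although GSC did not pass with the term for GC content and length. Of 13 tested epithelial genes and regulators 4 were higher and 4 lower. The desmosome gene DSP had 11403 counts in the DMSO libraries of MP41 and 0 in those of Mel92.1, lower by at least 3520-fold against a floor of 3 counts over the group. OVOL2, an epithelial repressor of ZEB1, had 139 counts in Mel92.1 and 0 in MP41, and the keratin gene KRT18 was higher by 3.92 on the log2 scale. Of 10 tested melanoma dedifferentiation genes 6 were lower in Mel92.1, among them EGFR (-5.19) and NGFR (2 against 71 counts, ratio 0.0304, counting interval 0.00361 to 0.114), and 3 higher, among them LOXL1, by at least 16.2-fold.

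The lineage and cell type markers moved with the lines too. Of 8 melanocyte markers 5 were lower in Mel92.1, among them DCT (-7.37) and TYR (-2.53), and 2 higher, PMEL among them (1.00). Of 5 tested fibroblast markers COL1A1 (0.86) and LUM (0.83) were higher in Mel92.1 and FAP was lower, with 0 counts against 325 in MP41, and of 4 tested endothelial and immune markers 3 were lower, KDR by at least 46.0-fold, PTPRC (-3.62, from 4 counts in Mel92.1) and CD68 (-2.41). Summed endothelial and immune levels were 26.5 to 35.8 CPM in Mel92.1 and 154.3 to 175.3 CPM in MP41 with DMSO, mostly CD68, and the endothelial cadherin gene CDH5 had 1 count in all 18 libraries. The part of these markers in the values of the 10 genes was not tested.

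In MP41, ZEB2 fell and TWIST1 rose with A366, and no other gene of the 10 passed the threshold. The 2 genes called, 1 in each direction, stand beside 46.0% of all 14956 genes tested in that comparison, so the share called among the 10 was below that of the table as a whole. The median log2 change over the 10 was -0.16 and over all tested genes 0.02. In bulk samples, fewer cells of a type and less RNA per cell cannot be told apart.

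ZEB2 was at 113, 111 and 124 CPM with DMSO and at 76.2, 93.8 and 64.7 CPM with A366. Every A366 library was below every DMSO library, and the log2 change was -0.59 (SE 0.11, adjusted p = 0.00149). TWIST1 was at 13.9, 15.8 and 15.7 CPM with DMSO and at 22.9, 19.1 and 24.4 CPM with A366, again without overlap, a log2 change of 0.52 (SE 0.10, adjusted p = 0.00185). Replicate 2 lay closest to the DMSO libraries for both genes. The 4 ribosomal RNA genes took 5.93%, 8.06% and 10.96% of the counts in the A366 libraries and 3.31 to 5.10% in the DMSO libraries. The part of this in the changes was not tested. With a term for GC content and length, described below, the log2 change of ZEB2 was -0.14 and that of TWIST1 was 0.10, which did not pass. Without the 4 exchanged libraries the log2 changes were -0.65 for ZEB2 and 0.55 for TWIST1, values that rest on 1 A366 library.

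**Figure D3:**
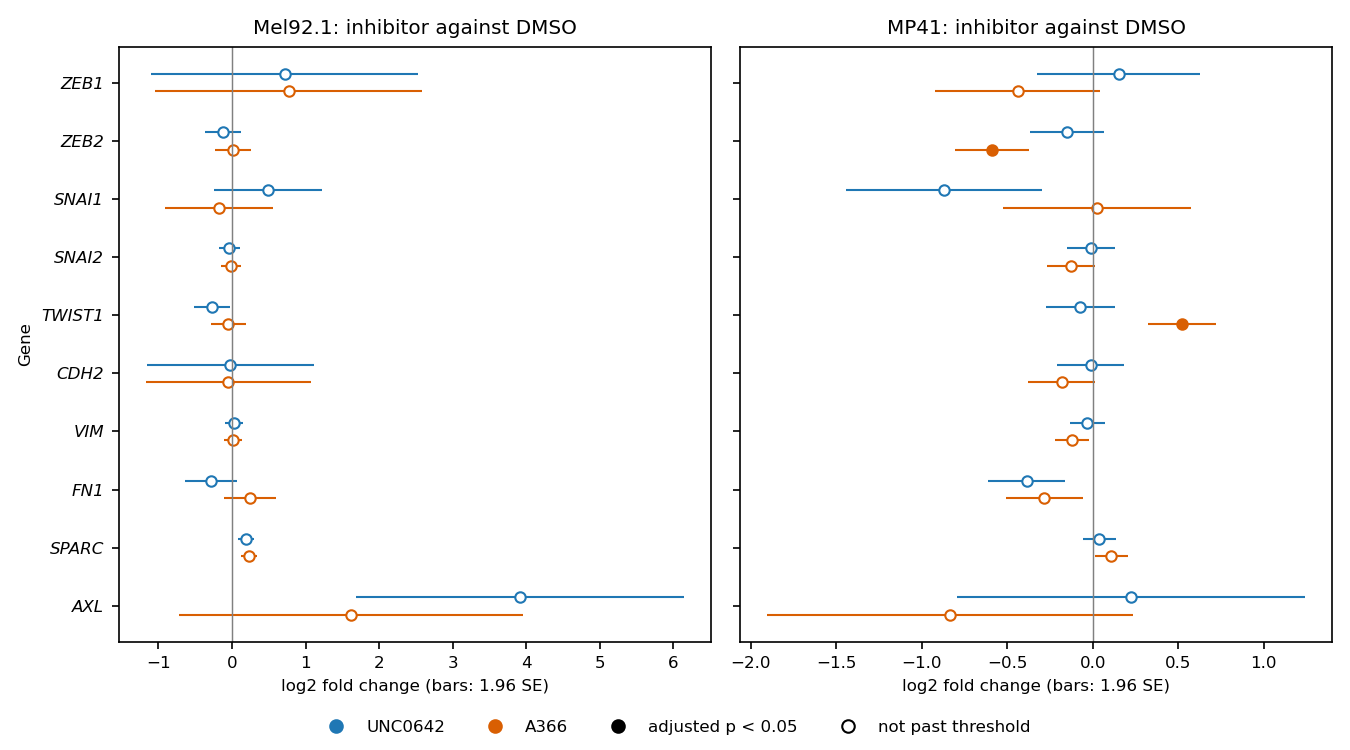
Log2 fold change of each of the 10 genes with UNC0642 and with A366 against DMSO (horizontal axis), with Mel92.1 in the left panel and MP41 in the right. Points are the estimates, filled where the adjusted p was below 0.05, bars give 1.96 SE, and the panels have axes of their own. In MP41 with A366, ZEB2 lies at -0.59 and TWIST1 at 0.52, and the widest bars belong to AXL and, in Mel92.1, ZEB1 and CDH2.

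The remaining 3 factors did not pass. ZEB1 was at 6.94, 4.81 and 6.91 CPM with DMSO and 4.22, 6.52 and 3.23 CPM with A366, an overlapping spread with a log2 change of -0.44 (SE 0.25, adjusted p = 0.162). SNAI1 was at 1.88, 1.70 and 0.978 CPM with DMSO and 1.44, 1.53 and 1.75 CPM with A366 (log2 change 0.02, 95% interval -0.53 to 0.57). SNAI2 was at 50.3, 52.4 and 49.9 CPM and 48.1, 48.3 and 45.3 CPM, a shift without overlap but of only -0.13 on the log2 scale (SE 0.07, adjusted p = 0.156).

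Among the effectors with A366 in MP41, FN1 was at 56.5, 53.4 and 56.9 CPM with DMSO and at 44.0, 56.6 and 38.5 CPM with A366. Replicate 2 with A366 sat within the DMSO range, and the log2 change was -0.29 (SE 0.11, adjusted p = 0.0595). Without that library 4 of the 10 genes passed, FN1 and ZEB1 in addition to ZEB2 and TWIST1, beside 52.1% of all tested genes. FN1 also passed with DESeq2, with limma voom and with no filter on low counts. It passed with the libraries as labelled too, but that setting mixes the lines, and FN1 was lower in Mel92.1 without inhibitor. With a term for GC content and length, described below, FN1 was at 0.10 and did not pass. Without both exchanged libraries, so with 1 A366 library, FN1 was at -0.38 (adjusted p = 0.00253), VIM at -0.12 (adjusted p = 0.0435), ZEB1 at -0.60 (adjusted p = 0.103) and SPARC at 0.10 (adjusted p = 0.194). VIM was at 1488, 1478 and 1479 CPM with DMSO and at 1403, 1286 and 1467 CPM with A366 (log2 change -0.12, SE 0.05, adjusted p = 0.0728), and CDH2 at 11.5, 10.99 and 11.8 CPM and 9.95, 11.3 and 9.499 CPM (-0.18, SE 0.10, adjusted p = 0.155).

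SPARC was the effector with a shift in the other direction, at 376, 368 and 380 CPM with DMSO and 412, 406 and 412 CPM with A366 (log2 change 0.11, SE 0.05, adjusted p = 0.0936). AXL had 25, 12 and 12 counts with DMSO and 9, 6 and 16 with A366, a ratio of 0.556 (0.343 to 0.890) by counting error alone, while the fit across replicates gave a log2 change of -0.84 (SE 0.55, adjusted p = 0.234). The A366 and DMSO replicates did not overlap for 5 of the 10 genes, TWIST1 and SPARC upward and ZEB2, SNAI2 and VIM downward, beside 58.0% of all tested genes.

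The changes of all genes with A366 in MP41 followed the GC content and length of the transcripts. With the genes divided by GC content into 4 bins of equal size, from the lowest to the highest, the median log2 change was -0.27, -0.09, 0.12 and 0.29, and from the shortest to the longest of 4 bins by length it was 0.31, 0.10, -0.08 and -0.29. GC content and length were known for 14453 genes, 96.64% of those tested. ZEB2, with 39.1% GC and a longest transcript of 9583 bases, belongs to the bin of lowest GC and to that of longest transcripts, and TWIST1, with 57.2% GC and 1666 bases, to the highest and the shortest.

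With a term for GC content and length in each library, ZEB2 changed by -0.14 on the log2 scale (adjusted p = 0.0479) and TWIST1 by 0.10 (adjusted p = 0.342). VIM then passed at -0.23 (adjusted p = 0.00155), and FN1 was at 0.10. Under the same term the count of genes called among the 10 stayed at 2, now ZEB2 and VIM. For UNC0642 in MP41 the bin medians lay between -0.02 and 0.03, and for both inhibitors in Mel92.1 between -0.06 and 0.04. Whether the trend comes from the libraries or from the treatment was not tested.

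**Figure D4:**
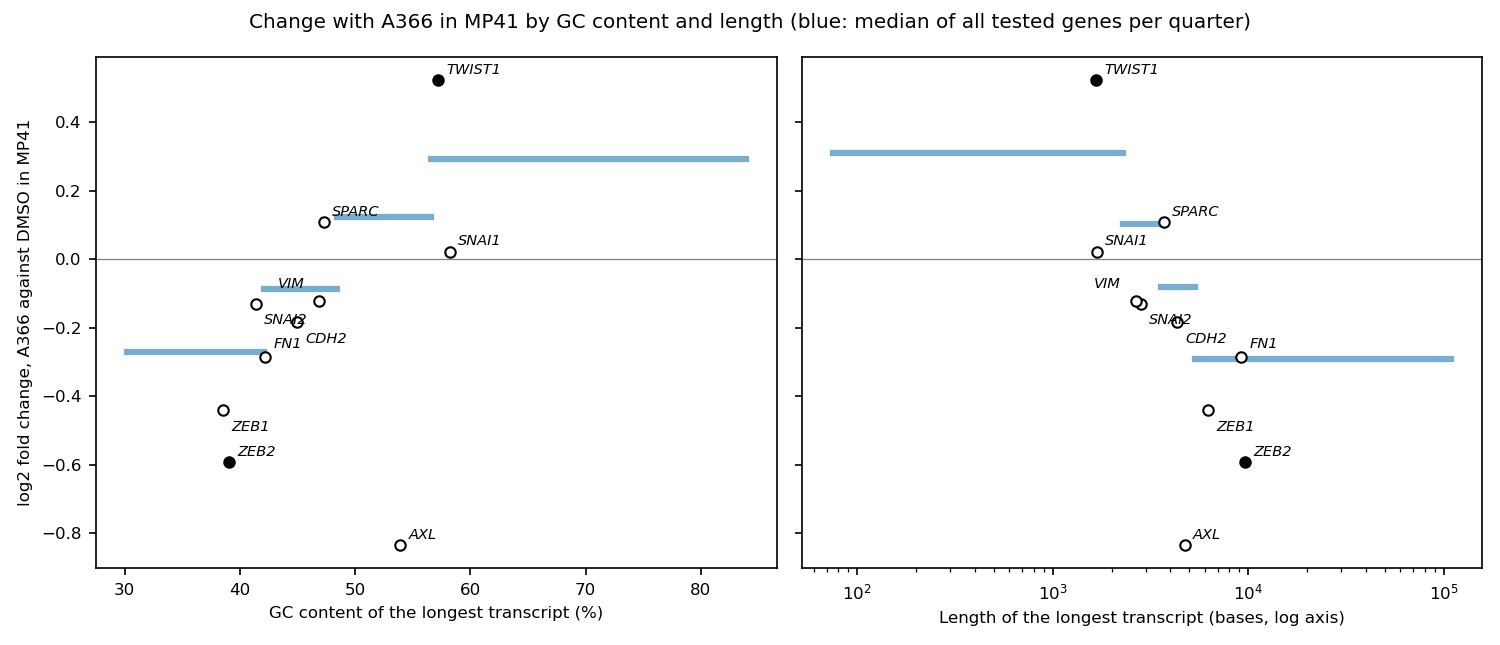
Log2 fold change with A366 against DMSO in MP41 (vertical axis) for the 10 genes against the GC content of the longest transcript (left, percent) and its length (right, bases, log axis). Points are the 10 genes, filled where the adjusted p was below 0.05, and the blue steps give the median of all tested genes in each of 4 bins, which rises from -0.27 to 0.29 with GC content and falls from 0.31 to -0.29 with length.

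The genes whose levels most resembled those of ZEB2 over the 18 libraries, after the mean of each line was taken off, were SEC23A (Pearson r = 0.978), FAT1 (0.970) and HECTD4 (0.968), whose longest transcripts have 4215, 14786 and 15759 bases. For TWIST1 they were TMEM132A (0.963), ORMDL3 (0.950) and KEAP1 (0.941), with 59.9%, 54.0% and 60.3% GC. These values are a description, as the 18 points share lines, treatments and the trend with GC content and length.

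**Figure D5:**
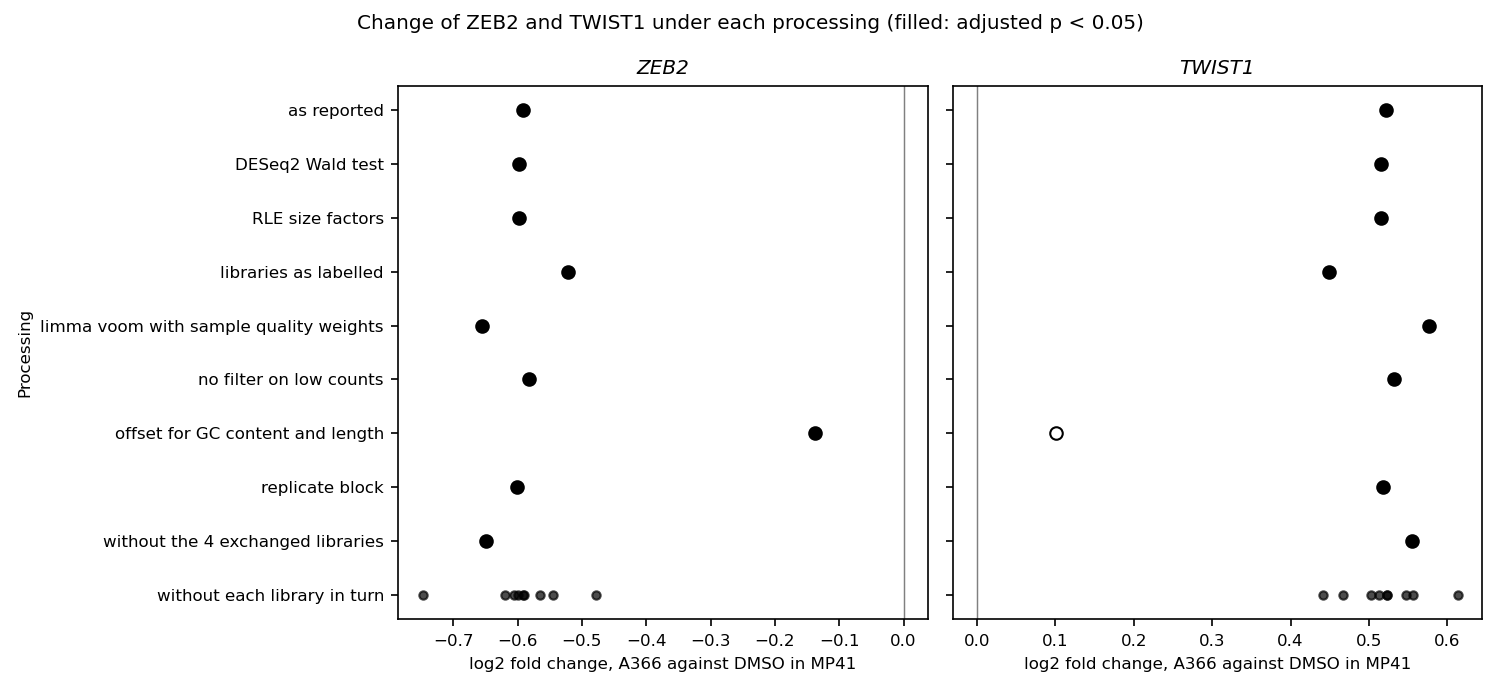
Log2 fold change of ZEB2 (left) and TWIST1 (right) with A366 against DMSO in MP41 (horizontal axis) under each way of processing (vertical axis). Filled points passed an adjusted p of 0.05. The change of ZEB2 moves from -0.59 to -0.14 and that of TWIST1 from 0.52 to 0.10 when GC content and length are taken into account.

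Around the 10 genes, the lists are given beside all tested genes, of which 23.5% fell and 22.5% rose with A366 in MP41. Of 11 tested epithelial genes and regulators 4 fell and none rose, with a median log2 change of 0.01. KRT8 went from 31, 44 and 15 counts to 2, 1 and 3 (log2 change -4.04, adjusted p = 0.000619) and KRT18 from 17, 38 and 11 to 3, 0 and 2 (-3.86, adjusted p = 0.00394), so both keratins were scarce before treatment, and reads of their many processed pseudogenes may be split or shared in the counting. DSP was well measured, at 85.3, 81.4 and 86.0 CPM with DMSO and 40.6, 55.5 and 31.1 CPM with A366 (-1.01, adjusted p = 0.000649). CDH1 had 9 counts in all with DMSO and 4 with A366 and was not tested in this line. With the term for GC content and length 4 epithelial genes fell and 2 rose, and DSP was at -0.77.

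Of 6 tested other factors, SOX9 (log2 change -0.61, adjusted p = 0.0225) and ETS1 (-0.53, adjusted p = 0.00108) fell. Other mesenchymal genes did not share 1 direction. Of 15 tested, the smooth muscle actin gene ACTA2 (0.59) and NT5E (0.33) rose and TNC fell (-2.21, adjusted p = 0.0194). ACTA2 was at 0.19 and did not pass with the term for GC content and length. Of 4 genes around AXL, the ligand gene PROS1 fell (-0.38).

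Of 9 tested dedifferentiation genes 4 rose and 2 fell. JUN, an AP-1 factor, was at 7.83, 9.39 and 7.50 CPM with DMSO and 21.9, 21.6 and 26.6 CPM with A366 (1.48, adjusted p = 1.67e-05), CYR61, a YAP target, rose by 0.78, and EGFR fell by 1.00. Of 8 melanocyte markers 3 rose, PMEL among them (0.42), and 3 fell, MITF (-0.42) and DCT (-0.31) among them. DCT was at -0.06 with the term for GC content and length. Of 5 fibroblast markers COL1A1 (-0.43) and LUM (-0.26) fell, with summed fibroblast levels of 31.0 to 34.2 CPM with DMSO and 26.1 to 26.8 CPM with A366, and of 4 endothelial and immune markers VWF rose (2.73) from 21, 21 and 9 counts to 152, 143 and 102. With the libraries as labelled, which mixes the lines, the log2 changes of KRT18, ACTA2, NT5E, COL1A1 and LUM took the opposite sign, and without the 4 exchanged libraries KRT18, TNC, SOX9 and LUM missed the threshold. The part of the marker genes in the changes of ZEB2 and TWIST1 was not tested.

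UNC0642 in MP41 moved none of the 10 genes past the threshold, beside 0.241% of all 14956 tested genes. At an unadjusted p under 0.05 there were 2, FN1 and SNAI1, and DESeq2 called 0 and limma voom 1. FN1 was at 56.5, 53.4 and 56.9 CPM with DMSO and at 43.3, 42.7 and 41.9 CPM with UNC0642, a log2 change of -0.39 (SE 0.12, adjusted p = 0.306). The UNC0642 libraries lay close together and well below the DMSO libraries, and FN1 passed without the 4 exchanged libraries (adjusted p = 0.0083).

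SNAI1 in MP41 was at 1.88, 1.70 and 0.978 CPM with DMSO and at 0.934, 0.728 and 0.832 CPM with UNC0642, also without overlap (log2 change -0.87, SE 0.29, adjusted p = 0.375). The replicates with UNC0642 lay wholly below those with DMSO for 4 of the 10 genes, ZEB2, SNAI1, VIM and FN1, and wholly above for none, beside 18.8% of all tested genes. ZEB2 was at 105, 103 and 106 CPM and VIM at 1475, 1412 and 1475 CPM with UNC0642, with log2 changes of -0.15 (95% interval -0.37 to 0.07) and -0.03 (-0.13 to 0.07).

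The other 6 genes overlapped their DMSO libraries in MP41 with UNC0642. TWIST1 was at 15.4, 14.2 and 13.8 CPM, CDH2 at 12.1, 10.8 and 11.3 CPM and SNAI2 at 50.8, 47.0 and 54.4 CPM. ZEB1 was at 7.34, 5.43 and 8.06 CPM and SPARC at 389, 378 and 389 CPM, and AXL had 14, 21 and 22 counts. Of the surrounding lists, dedifferentiation genes held 2 that fell of 9 tested, the YAP targets CYR61 (-0.80) and CTGF (-0.63), and melanocyte markers 1 that rose of 8, DCT (0.62), while in the other lists no gene passed. None of these 3 passed with the libraries as labelled, where 0 of all 15088 tested genes did.

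Set against each other in MP41 at the same dose and time, the inhibitors differed in ZEB2, TWIST1 and SNAI1. The 3 genes called stand beside 43.1% of all genes tested. ZEB2 was lower with A366 than with UNC0642 by 0.44 on the log2 scale (log2 difference -0.44, SE 0.11, adjusted p = 0.00718) and TWIST1 higher by 0.59 (SE 0.10, adjusted p = 0.00102). SNAI1 was at 1.44, 1.53 and 1.75 CPM with A366 and at 0.934, 0.728 and 0.832 CPM with UNC0642, higher by 0.89 (SE 0.29, adjusted p = 0.026).

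The calls depended on the processing in both directions. Without the 4 exchanged libraries, with 1 A366 library, ZEB2 was at -0.50 and TWIST1 at 0.63. With the term for GC content and length the difference in ZEB2 was -0.0045 (adjusted p = 0.954) and that in SNAI1 0.54 (adjusted p = 0.172), while TWIST1 still differed at 0.23 (adjusted p = 0.0325). SNAI1 also missed the threshold with the libraries as labelled, without the 4 exchanged libraries and without any 1 of MP41 A366 replicates 1 and 3 and MP41 UNC0642 replicates 2 and 3. The other 7 genes missed the threshold, from ZEB1 at -0.59 (95% interval -1.07 to -0.11, adjusted p = 0.0695) to SPARC at 0.07 (-0.03 to 0.17). ZEB1 passed in 7 of 17 alternatives, with adjusted p between 0.000192 and 0.31, among them DESeq2, limma voom and the fits without MP41 A366 replicate 2 or MP41 UNC0642 replicate 2. FN1 passed with the term for GC content and length, at 0.47 (adjusted p = 6.31e-05).

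In Mel92.1, neither inhibitor moved a gene of the 10 past the threshold. The share of all 14528 genes called was 0.688% with UNC0642 and 0.213% with A366. At an unadjusted p under 0.05 edgeR had 2 genes with UNC0642, SPARC and AXL, beside 9.93% of all tested genes. It had 1 with A366, SPARC, beside 4.32%. DESeq2 called 1 in each comparison, beside 2.68% with UNC0642 and 1.17% with A366. With limma voom 0 were called with UNC0642, beside 2.84%, and 3 with A366, beside 21.2%. The median log2 changes over the 10 were 0.0013 and 0.02, and over all tested genes -0.02 and -0.0052.

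SPARC was at 233, 239 and 244 CPM with DMSO, at 286, 263 and 272 CPM with UNC0642 and at 288, 274 and 277 CPM with A366. All 6 treated libraries were above all 3 DMSO libraries. The log2 change was 0.19 with UNC0642 (SE 0.05, adjusted p = 0.244) and 0.23 with A366 (SE 0.05, adjusted p = 0.252) in edgeR, and DESeq2 called both (adjusted p = 0.0138 and 0.00216). The 2 comparisons share their DMSO libraries.

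AXL had 2, 3 and 0 counts with DMSO and 9, 17 and 50 with UNC0642, or 0.547, 0.435 and 0.938 CPM in the treated libraries. The ratio of summed counts per library size was 17.5 with a counting interval of 7.17 to 55.4, and the fitted log2 change was 3.91 (SE 1.14, adjusted p = 0.262). Each UNC0642 library was above each DMSO library and within or above the range of untreated MP41, 0.261 to 0.541 CPM. AXL passed the filter on low counts in Mel92.1 mainly through its UNC0642 libraries. That separation is therefore not taken as support for a rise. Of 76 counts 50 came from replicate 3. Leaving out Mel92.1 UNC0642 replicate 1 gave 4.02 (adjusted p = 0.134), and over the alternatives run the adjusted p lay between 0.101 and 1.0. The share of ribosomal RNA counts was 32.8%, 10.1% and 19.5% in the UNC0642 libraries and 6.5 to 12.5% in the DMSO libraries, and its part in the AXL counts was not tested. With A366 AXL had 0, 12 and 6 counts (ratio 3.31, 1.18 to 11.4, log2 change 1.62, SE 1.19, adjusted p = 1.0).

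None of the 5 transcription factors passed in Mel92.1, and ZEB1 and SNAI1 were too scarce to resolve small changes. TWIST1 was at 17.4, 20.3 and 20.7 CPM with DMSO and at 16.8, 14.7 and 16.9 CPM with UNC0642, lower without overlap (log2 change -0.27, SE 0.12, adjusted p = 0.503), and at 17.4, 17.6 and 21.1 CPM with A366. ZEB2 was at 72.5, 65.0 and 84.6 CPM with UNC0642 and 80.2, 91.6 and 72.5 CPM with A366, within or near the DMSO range of 72.4 to 91.8. SNAI2 was at 108, 116 and 108 CPM and 118, 109 and 109 CPM, with log2 changes of -0.04 (95% interval -0.18 to 0.10) and -0.01 (-0.15 to 0.13).

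ZEB1 had 45, 15 and 18 counts with DMSO and 0, 28 and 113 with UNC0642, so the 3 UNC0642 libraries spanned 0 to 2.12 CPM and the log2 change of 0.72 had an SE of 0.93. Without replicate 1 it was 1.24 (adjusted p = 0.403). With A366 ZEB1 was at 0.925, 1.42 and 0.730 CPM (log2 change 0.77, SE 0.93). SNAI1 was at 3.22, 1.71 and 1.61 CPM with UNC0642, highest in the same replicate 1, and at 1.68, 1.09 and 1.30 CPM with A366. Its log2 change with UNC0642 was 0.49 with that library and 0.12 without it.

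Without the exchanged libraries none of the 10 passed with A366 in Mel92.1. With the 1 A366 library left, SPARC was at 0.26, FN1 at 0.18, ZEB1 at 0.62 and TWIST1 at -0.17 on the log2 scale, and AXL had 0 counts in it.

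Of the remaining effectors in Mel92.1, CDH2 was at 1.15, 0.307 and 0.394 CPM with UNC0642, with replicate 1 above and the others below the DMSO range, and at 0.608, 0.414 and 0.690 CPM with A366. Its log2 change with UNC0642 was -0.02 with that library and -0.75 without it (adjusted p = 0.511). VIM was at 2009, 2101 and 2010 CPM with UNC0642 and 1989, 1956 and 2114 CPM with A366, overlapping the DMSO libraries. FN1 was at 23.8, 24.2 and 29.8 CPM with UNC0642 and at 35.9, 44.1 and 32.3 CPM with A366, against 25.4 to 40.1 CPM with DMSO. The FN1 libraries with A366 were all above those with UNC0642 (log2 difference 0.53, SE 0.18, adjusted p = 0.598). That direct comparison of the inhibitors called none of the 10, beside 0.165% of all tested genes. At an unadjusted p under 0.05 edgeR had 2 (FN1 and AXL), beside 7.21%. DESeq2 called 0 and limma voom 1, each beside 1.47%.

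Replicates did not overlap with DMSO for 3 of the 10 genes with UNC0642 in Mel92.1, SPARC, AXL and TWIST1, beside 15.4% of all tested genes. With A366 this held for 1, SPARC, beside 15.7%. AXL had entered the tested genes mainly through its UNC0642 libraries. Of the surrounding lists, only melanocyte markers held genes that passed with UNC0642, TYR (0.49, adjusted p = 0.00345) and MLANA (0.34, adjusted p = 0.0379), 2 of 8 and both upward. Neither passed with the term for GC content and length. Neither passed with the libraries as labelled, where 0 of all 14692 tested genes did. No gene of any list passed with A366. CDH1 had 34, 12 and 7 counts with DMSO, 27, 25 and 49 with UNC0642 (log2 change 1.36, SE 0.61, adjusted p = 0.503) and 24, 45 and 28 with A366 (0.81, SE 0.61). The matrix gene TNC, chosen for mention after its values were seen, had 0, 1 and 1 counts with DMSO and 0, 18 and 70 with UNC0642 (ratio 50.6, 13.6 to 425.0) without passing, and as with AXL most of its counts came from replicate 3.

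Whether the lines responded differently was tested as the change in Mel92.1 minus the change in MP41. For UNC0642 none of the 10 passed, beside 0.601% of 15799 genes. At an unadjusted p under 0.05 in edgeR there were 3, beside 9.79%. DESeq2 and limma voom also called 0, beside 1.99% and 1.54%. The largest was AXL at 3.70 (SE 1.19, adjusted p = 0.265), followed by SNAI1 at 1.35 (SE 0.47, adjusted p = 0.318), from changes of 0.49 in Mel92.1 and -0.87 in MP41.

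For A366, ZEB2 and TWIST1 differed between the lines, 2 of the 10 beside 13.8% of all genes. The ZEB2 difference was 0.59 (SE 0.18, adjusted p = 0.0397), from a change of 0.02 in Mel92.1 and -0.59 in MP41. The TWIST1 difference was -0.60 (SE 0.16, adjusted p = 0.0239), from -0.05 and 0.52. Neither passed without the 4 exchanged libraries (adjusted p = 0.122 for ZEB2 and 0.103 for TWIST1), and with the term for GC content and length they were 0.12 (adjusted p = 0.801) and -0.19 (adjusted p = 0.737). Leaving out 1 library at a time, ZEB2 passed in 7 of 18 fits and TWIST1 in 11 of 18. Both were lost without any 1 of MP41 A366 replicates 1 and 3, MP41 DMSO replicate 1, Mel92.1 A366 replicates 1 and 2 and Mel92.1 DMSO replicates 2 and 3, and ZEB2 also without MP41 DMSO replicates 2 or 3 or MP41 UNC0642 replicates 1 or 3.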

How the data were processed

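RNA was sequenced from 18 libraries (3 per line and treatment). Per the labels, libraries were strand-specific and made from mRNA bound to oligo-dT beads, while the series text names ribosomal RNA depletion. Per the submitters' processing notes, the authors used Bowtie2 2.1.0, RSEM 1.2.15 and hg38, whereas the methods of the study name a mouse build and TopHat. The deposited values are RSEM's expected counts, without normalization, and 5.855 to 13.371% of the values of a library were not whole. They were rounded here. The table had 0 columns of other samples.

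Genes passing filterByExpr were tested with edgeR 4.0.16 (TMM, quasi-likelihood, Benjamini-Hochberg over all tested genes, threshold 0.05) in R 4.3.3, with the 9 libraries of a line for the inhibitors and all 18 for the lines and for the differences between their responses. SE is the log2 fold change over the root of F, and intervals are 1.96 SE. A366 replicates 2 and 3 were exchanged between the lines as the study lists them. The members and gene lists were chosen with earlier results of these data known. All members were described, CDH1 was always named, and of each other list up to 3 genes past the threshold with the widest change were named.

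Alternatives were the libraries as labelled, the 4 exchanged libraries left out, DESeq2 1.42.0, RLE size factors, no filter, a replicate block, a spline in GC content and length per library (GENCODE 29), limma 3.58.1 voom with quality weights, the median transcript length and each library left out in turn. The fits were tested on simulated data. Replicate numbers did not pair the libraries. Sequences are from RefSeq (GRCh38.p14), with stretches for 7 of the 10 genes. Lengths were matched for 23899 symbols by name and 717 by synonym, and 1859 had none. Depth was 23601156 to 62941462 counts per library, so 3 counts correspond to 0.0519 to 0.182 CPM.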

Additional observations from a re-analysis of the deposited data

Results flagged for a closer look

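The change of ZEB2 with A366 differed between the lines in the test of the difference itself, with 0.59 on the log2 scale (0.5858, SE 0.18, edgeR adjusted p = 0.0397) for the change in Mel92.1 minus the change in MP41. The change of TWIST1 differed in the same test by -0.60 (-0.6002, SE 0.16, edgeR adjusted p = 0.0239). Both differences lost the threshold with the term for GC content and length and without the 4 exchanged libraries, which leaves 1 A366 library per line, and their cause was not tested.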

How the results depend on the processing

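The number of the 10 genes past the threshold depended on the test and on the libraries for the inhibitors, and less so for the lines. For A366 in MP41 (2) it was 9 with limma voom, beside 68.5% of all genes tested. With 1 library left out it was 2 to 4, beside 31.5 to 52.1%. For A366 against UNC0642 in MP41 (3) it was 8 with limma voom, beside 61.2% of all genes tested. With 1 library left out it was 2 to 4, beside 29.3 to 50.7%. For the same comparison in Mel92.1 (0) it was 1 with limma voom, beside 1.47%. For A366 in Mel92.1 (0) it was 1 with DESeq2 and 3 with limma voom, and for UNC0642 in Mel92.1 (0) 1 with DESeq2. For UNC0642 in MP41 (0) it was 1 with limma voom, with the GC and length term and without the 4 exchanged libraries, FN1 in each, and 0 to 1 with 1 library left out (1 without MP41 A366 replicate 2). For the difference in the response to A366 (2) it was 7 with the libraries as labelled, 5 with limma voom, 1 with the replicate block, 0 with the GC and length term, 0 without the 4 exchanged libraries and 0 to 3 with 1 library left out. It was 0 without MP41 A366 replicates 1 or 3, MP41 DMSO replicate 1, Mel92.1 A366 replicates 1 or 2, or Mel92.1 DMSO replicates 2 or 3, and 1 without MP41 DMSO replicates 2 or 3 or MP41 UNC0642 replicates 1 or 3. The cause was not tested.

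With the libraries as labelled the difference in the response to A366 turned to -1.49 for SNAI2 and -0.64 for VIM, and the line difference of ZEB2 turned to 0.12 with the GC and length term. Of the fold changes of the 10 genes, 613 kept direction and call under alternatives other than leaving out 1 library, 13 lost the threshold and 40 gained it with the same direction, and 51 that passed under neither setting changed sign, beside the 3 above. With 1 library left out 997 kept direction and call, 22 lost the threshold, 10 gained it and 51 that passed under neither setting changed sign. Over all genes, those called with UNC0642 in Mel92.1 numbered 100 in the reported fit, 389 with DESeq2, 413 with limma voom, 46 with the replicate block, 47 with the GC and length term, 40 without the 4 exchanged libraries and 0 with the libraries as labelled. For A366 in Mel92.1 the reported 31 became 3087 with limma voom and 170 with DESeq2, but 17 with the GC and length term, 10 with the replicate block and 0 with the libraries as labelled or without the 4 exchanged libraries. For UNC0642 in MP41 the reported 36 became 180 with DESeq2, 154 with limma voom and 134 with the GC and length term, but 9 with the replicate block, 0 with the libraries as labelled and 5 to 14 without 1 DMSO or UNC0642 library of MP41. For the difference in the response to A366 the reported 2179 became 109 with the GC and length term and 208 without the 4 exchanged libraries, but 3446 with DESeq2, 7801 with the libraries as labelled and 9276 with limma voom.

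Libraries with the same number correlated between -0.165 and 0.183 in Mel92.1 and between -0.069 and 0.073 in MP41, so the numbers were not taken as pairs, and the replicate block changed no other count of the 10 genes. Depth limits AXL, CDH1 and, in Mel92.1, ZEB1 and CDH2, with sums of 99, 251, 358 and 205 counts in the 9 libraries of that line.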
